A study of Mus musculus with 10 samples.

Results

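The genes described here are the Wnt ligands (Wnt), their Frizzled receptors (Fzd) and the secreted inhibitors of the Sfrp and Dkk families. They were chosen by a rule on names, with earlier results of these data known. It took any gene whose array symbol was Wnt, Fzd, Sfrp or Dkk, a number and, where present, the letter a or b. This gave 37 genes of the 18194 measured, with 19 Wnt, 10 Fzd, 4 Sfrp and 4 Dkk genes. Each was read by its brightest probe set, and 22 of the 37 had more than 1 probe set.

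Wnt proteins are secreted, lipid-modified signals that bind a Frizzled receptor together with the co-receptors Lrp5 and Lrp6. Binding stops the destruction complex from removing beta-catenin, which then acts in the nucleus with Tcf and Lef factors. Sfrp proteins carry a Frizzled-like domain and bind Wnts outside the cell, and Dkk1, Dkk2 and Dkk4 bind Lrp5 and Lrp6. In mouse embryonic stem cells beta-catenin signalling helps to keep cells undifferentiated, and in the embryo different Wnt, Fzd and Sfrp genes mark the primitive streak and the neural plate.

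The arrays were 10 Affymetrix mouse expression arrays of NG4, a mouse embryonic stem cell line, with 2 arrays in each of 5 groups. The groups received siRNA against Socs3 (siSocs3), Sox17 (siSox17), Fbxw7 (siFbxw7) or Rnf31 (siRnf31), or an siRNA without a target (siNonTarget). Cells of all 5 groups were transfected while being plated, kept in retinoic acid and collected 48 h after transfection. Socs3 restrains Jak and STAT3 signalling by LIF, Sox17 is an endoderm transcription factor, Fbxw7 binds the substrates of an SCF ubiquitin ligase, and Rnf31 builds linear ubiquitin chains. An siRNA lowers a transcript for a time and does not remove the gene. Whether the 2 arrays of a group stand for separate cultures is not in the labels. The p-values therefore cover only the spread between arrays, and that spread may be technical.

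Array medians of the deposited intensities lay between 46.39 and 47.95, and the number of arrays limits the precision. No targeted transcript passed the test in its own group. Their log2 changes (with SE, 2 arrays a group) were −0.40 ± 0.17 for Rnf31 and −0.25 ± 0.15 for Fbxw7 in their own groups, and Sox17 and Socs3 were 0.03 ± 0.53 and 0.44 ± 0.24, so each group is named by its label only. The log2 difference between the actin 3' and 5' probe sets, a sign of RNA integrity, was 0.60 on siFbxw7 replicate 1 and 0.50 on siNonTarget replicate 1, and 0.21 to 0.29 on the other 8 arrays. Markers of embryonic stem cells lay between percentiles 74.5 (Esrrb) and 99.9 (Dppa5a) of all genes by mean intensity, with Pou5f1 at 2192 or more on all arrays. Those of 5 other cell types ran between percentiles 10.7 (Lum) and 74.1 (Gata6). Of these, Foxd3, Gsc, Tbx6, Afp, Thy1, Lum and Postn lay in the lowest 30% of genes, while the neural progenitor marker Nes, the endoderm marker Lama1 and the fibroblast marker Col1a2 stood at percentiles 68.6, 70.5 and 72.0.

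RefSeq promoter sequences (build GRCm38.p6) were at hand for 25 of the 37 genes, among them 4 of the 11 that changed in siSocs3. The 250 bases before a transcript start are shown for Sfrp2, which had the largest fall, for Wnt3a, which had the largest rise of the Wnt genes that passed, and for Dkk1, which holds a core of the Tcf/Lef binding motif. Capitals mark that core, CTTTGAA, and the other sequences hold none of the motifs searched.
Sfrp2 promoter (chr3:83766071-83766320, plus strand): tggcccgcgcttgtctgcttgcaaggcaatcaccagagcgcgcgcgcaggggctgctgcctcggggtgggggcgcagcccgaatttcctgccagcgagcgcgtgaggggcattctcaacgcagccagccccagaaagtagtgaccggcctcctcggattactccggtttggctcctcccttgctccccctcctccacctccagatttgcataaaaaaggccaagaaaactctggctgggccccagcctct
Wnt3a promoter (chr11:59290752-59291001, minus strand): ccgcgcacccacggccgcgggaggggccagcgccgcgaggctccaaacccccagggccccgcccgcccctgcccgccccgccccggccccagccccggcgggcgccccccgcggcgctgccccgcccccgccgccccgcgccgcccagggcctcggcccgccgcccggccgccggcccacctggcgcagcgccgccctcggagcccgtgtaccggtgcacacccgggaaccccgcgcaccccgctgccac
Dkk1 promoter (chr19:30549497-30549746, minus strand): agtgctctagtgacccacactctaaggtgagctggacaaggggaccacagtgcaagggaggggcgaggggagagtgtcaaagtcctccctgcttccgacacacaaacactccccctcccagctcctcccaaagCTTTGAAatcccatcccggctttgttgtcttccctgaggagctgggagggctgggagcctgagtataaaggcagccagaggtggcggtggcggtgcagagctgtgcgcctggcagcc
In windows from 250 bases before to 50 after a start, on both strands, CTTTGAA was found in 1 of 28 entries of these genes (Dkk1, bases −117 to −111) and in 5.14% of all 32851 entries. The other Tcf/Lef core searched, CTTTGAT, was found in 2 of the 28 (Wnt5b and Wnt11) and in 3.73% of all. The core of the retinoic acid receptor motif, AGGTCA, was found in 1 (Wnt16) and in 16.3% of all. Its direct repeats spaced by 5 or by 2 bases were found in 0 of the 28 and in 0.00913% each of all. The repeats contain that core, and the 2 Tcf/Lef cores differ in their last letter. A match describes letters only, and Fzd7 and Wnt9b, the other changed genes with an entry, held none.

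In siSocs3 cells several receptor and Sfrp genes were lower, and 3 Wnt genes and Dkk4 higher, than in siNonTarget cells. Of the 37 genes, 11 passed the test (limma over all genes, Benjamini-Hochberg adjusted p under 0.05), 4 up and 7 down. This is 29.7% of them, beside 9.26% of all genes called in this comparison (3.59% up, 5.66% down). The set was chosen with earlier results of these data known, so these shares, here and below, are descriptions only. Dkk4, Wnt3a, Wnt7b and Wnt9b rose, and Sfrp1, Sfrp2, Fzd3, Fzd6, Fzd7, Fzd8 and Dkk3 fell. The count rested on single arrays. It was 1 (Dkk4) without siSocs3 replicate 1 and 3 without its other array. It was 3 without siNonTarget replicate 1, 6 without either siSox17 array and 16 without either siFbxw7 array. With siFbxw7 replicate 1 and siNonTarget replicate 1 both dropped for their high actin difference (a choice made once the data had been seen), 8 genes passed, 6 of them among the 11.

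The 37 genes had a median log2 change of 0.10 and a median size of change, regardless of sign, of 0.52, beside 0.03 and 0.17 for all genes. An unadjusted p under 0.05 was found for 21 of the 37 (9 up, 12 down), or 56.8%, beside 26.2% of all genes. Both siSocs3 arrays lay above both siNonTarget arrays for 12 of the 37 genes and below both for 12, while 30.6% and 26.7% of all genes did so (57.2% in either direction). Both siSocs3 arrays were the highest of all 10 for 4 of the genes and the lowest for 7, beside 11.4% and 10.4% of all genes.

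**Figure D1:**
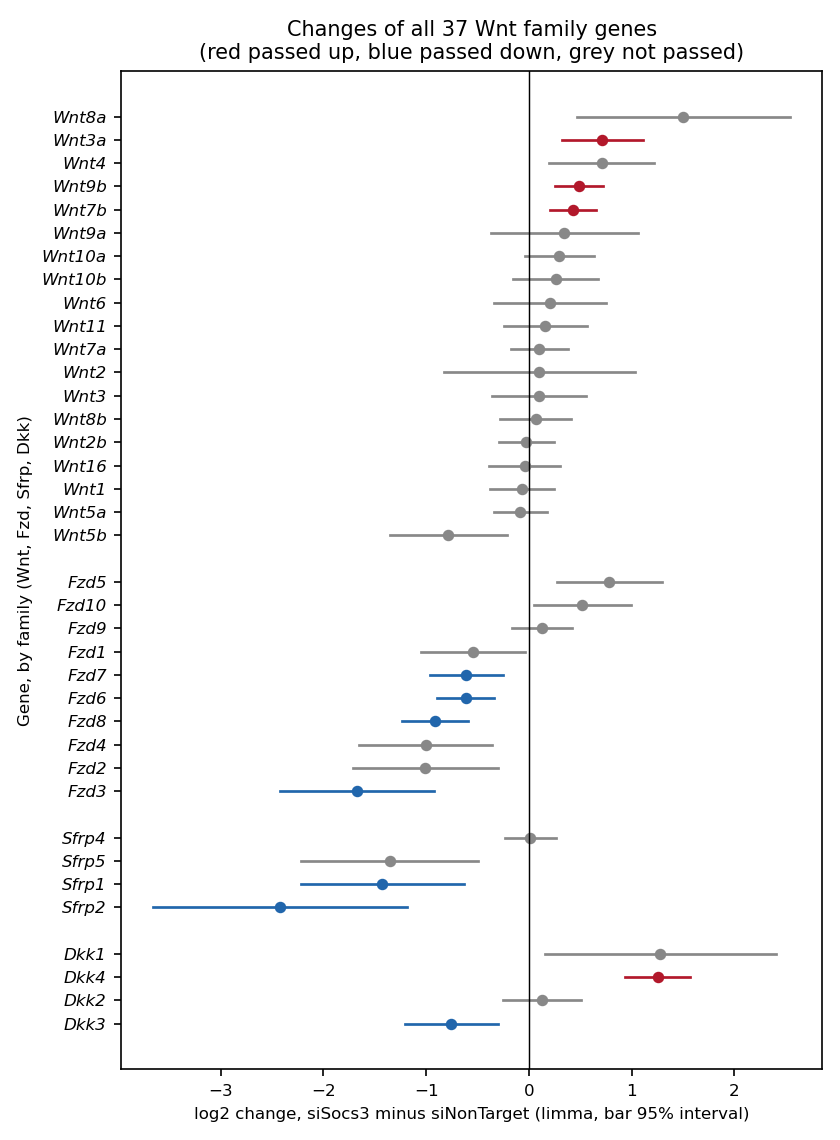
Each point is the log2 change of 1 gene in siSocs3 minus siNonTarget with its 95% interval from limma, sorted within the Wnt, Fzd, Sfrp and Dkk families (n = 2 arrays per group). Of 10 Fzd genes 7 lie below 0 and of 4 Sfrp genes 3, whereas 14 of 19 Wnt genes lie above 0. The median log2 change of all genes was 0.03. Coloured points passed the test. In each other siRNA group too, most Wnt genes were above 0 and most Fzd and Sfrp genes below 0 against these siNonTarget arrays.

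Among the ligands, 3 of 19 Wnt genes rose in siSocs3 and 0 fell, with a median log2 change of 0.16. By the same test 3.59% of all genes rose and 5.66% fell. Wnt3a, which signals through beta-catenin in the primitive streak, had intensities of 113 and 123 in the siSocs3 arrays, against 77.9 and 65.8 in the siNonTarget arrays. Both siSocs3 arrays were the highest of the 10. In log2 units it rose by 0.71 ± 0.17 (with the SE, from 2 arrays a group; limma adjusted p = 0.0368), or 1.64-fold. Wnt7b, a ligand with known roles in lung and vessel development, had 223 and 234 in the siSocs3 arrays, against 173 and 166 in the siNonTarget arrays. Again both siSocs3 arrays were the highest of the 10, and both siNonTarget arrays were the lowest. Wnt7b rose by 0.43 ± 0.10 (adjusted p = 0.0326), and its other probe set read 0.33 ± 0.13. Its change in siSox17 against siNonTarget was 0.27 ± 0.10 and did not pass (adjusted p = 0.218). Wnt9b, an inducer of kidney tubules, had 41.1 and 37.1 in the siSocs3 arrays, against 29.1 and 26.7 in the siNonTarget arrays. Its rise of 0.49 ± 0.10 (adjusted p = 0.0248) stands on a dim probe set, in the lowest 30% of genes. Averaged over its 2 probe sets Wnt9b was 0.37 and did not pass (adjusted p = 0.089). In a limma fit of the 2 groups alone Wnt3a passed (adjusted p = 0.0364), and Wnt7b and Wnt9b did not (adjusted p = 0.0705 and 0.067). All 3 calls were lost when any 1 of the 4 arrays of these groups was left out. With siSocs3 replicates 1 and 2 and then siNonTarget replicates 1 and 2 dropped in turn, the Wnt3a estimates were 0.77, 0.65, 0.84 and 0.59, those of Wnt7b 0.46, 0.39, 0.46 and 0.40, and those of Wnt9b 0.41, 0.56, 0.55 and 0.43. Every estimate kept its sign. The Wnt3a call was also lost without either siSox17 array.

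Other ligands had changes of similar or larger size that did not pass. Wnt8a, a ligand of the early posterior embryo, had 130.2 and 117 in the siSocs3 arrays, against 33.4 and 56.7 in the siNonTarget arrays. Its log2 change was 1.503 ± 0.46 (adjusted p = 0.0744), and it passed in a limma fit of the 2 groups alone (adjusted p = 0.0324). Wnt4, which acts in kidney and gonad development, had 155 and 185 in the siSocs3 arrays, against 89.5 and 119 in the siNonTarget arrays, with a change of 0.71 ± 0.23 (adjusted p = 0.082). Wnt5b, a ligand linked to beta-catenin-independent signalling, had 38.6 and 60.9 in the siSocs3 arrays, against 90.7 and 76.9 in the siNonTarget arrays. Its change was −0.78 ± 0.25 (adjusted p = 0.0852), and averaged over its probe sets it was −1.09 and passed (adjusted p = 0.0338). In each of these 3 genes the siSocs3 arrays lay on 1 side of both siNonTarget arrays. The other 13 Wnt genes had changes between −0.09 (Wnt5a) and 0.34 (Wnt9a) and unadjusted p of 0.0781 or more. Of the 19 probe sets, 8 lay in the lowest 30% of genes, among them those of Wnt1, Wnt2b, Wnt3, Wnt5a and Wnt8b, and so did Dkk2 and Dkk4.

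Among the receptors, 4 of 10 Fzd genes fell in siSocs3 and 0 rose, with a median log2 change of −0.61. By the same test 5.66% of all genes fell and 3.59% rose. Fzd3, a receptor of axon guidance and planar cell polarity, had 191 and 205 in the siSocs3 arrays, against 685 and 580.5 in the siNonTarget arrays. Both siSocs3 arrays were the lowest of the 10, and the change was −1.67 ± 0.33 (adjusted p = 0.019), or 3.19-fold lower. Its 6 probe sets disagreed: the other 5 read between −0.72 and 0.24, and their mean with the brightest was −0.47 (adjusted p = 0.0985). The call was lost without siSocs3 replicate 1 (−1.62), siSocs3 replicate 2 (−1.72) or siNonTarget replicate 1 (−1.55), and it held without both arrays of high actin difference (adjusted p = 0.0122).

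Fzd8, a receptor of the anterior embryo and forebrain, had 139 and 179.9 in the siSocs3 arrays, against 287 and 307 in the siNonTarget arrays. The siSocs3 arrays were both the lowest of the 10. It fell by 0.91 ± 0.14 on the log2 scale (limma adjusted p = 0.00939), and of 20 other settings only leaving out siSocs3 replicate 1 lost the call (−0.72, adjusted p = 0.0984). Its other probe set was also below 0 (−0.46 ± 0.14). Fzd6, which is best known for orienting hair follicles, had 146 and 180.5 in the siSocs3 arrays, against 259.6 and 238 in the siNonTarget arrays. The 8 arrays outside siSocs3 lay within a narrow band of 225 to 268, with both siSocs3 arrays below it. Its change was −0.62 ± 0.12 (adjusted p = 0.0203); the other 2 probe sets did not show it (0.08 ± 0.13 and 0.11 ± 0.14), and the mean of the probe sets was −0.14. The Fzd6 call was lost without siSocs3 replicate 1 (−0.46), without siNonTarget replicate 1 (−0.55) and with both arrays of high actin difference dropped (adjusted p = 0.093).

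Fzd7, a Frizzled of pluripotent cells, had 1086 and 1369.7 in the siSocs3 arrays, against 1649 and 2098 in the siNonTarget arrays. It fell by 0.61 ± 0.16 (adjusted p = 0.0434), close to the threshold. That call was lost in 13 of 20 settings, among them each of the 4 arrays of the pair left out (estimates −0.44 and −0.78 without siSocs3 replicates 1 and 2, and −0.78 and −0.44 without siNonTarget replicates 1 and 2), each siSox17 or siRnf31 array left out and both arrays of high actin difference left out, and its other probe set read 0.05 ± 0.13. The log2 changes of Fzd2 (−1.01 ± 0.31, adjusted p = 0.0774) and Fzd4 (−1.01 ± 0.29, adjusted p = 0.0614) were larger but did not pass. With the 2 groups alone in the limma fit, Fzd2 passed (adjusted p = 0.0271) and Fzd4 did not (adjusted p = 0.0519). Fzd2 had 699.9 and 856 in the siSocs3 arrays, against 1411 and 1717 in the siNonTarget arrays. Fzd4, the receptor of norrin in retinal vessels, had 134 and 159.7 in the siSocs3 arrays, against 241 and 357 in the siNonTarget arrays. The other probe sets of Fzd2 read −1.19 ± 0.33 and −1.0 ± 0.39, and those of Fzd4 −1.26 ± 0.28 and −0.07 ± 0.14. Fzd5 and Fzd10 were the receptors with estimates above 0 and an unadjusted p under 0.05, at 0.78 ± 0.23 (adjusted p = 0.0643) and 0.52 ± 0.21 (adjusted p = 0.153). Fzd5, a receptor of the developing eye, had 406 and 336 in the siSocs3 arrays, against 239.9 and 193 in the siNonTarget arrays. Averaged over its probe sets it was 0.91 and passed (adjusted p = 0.0136). Fzd1 (−0.54 ± 0.22) and Fzd9 (0.13 ± 0.13) did not pass.

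**Figure D2:**
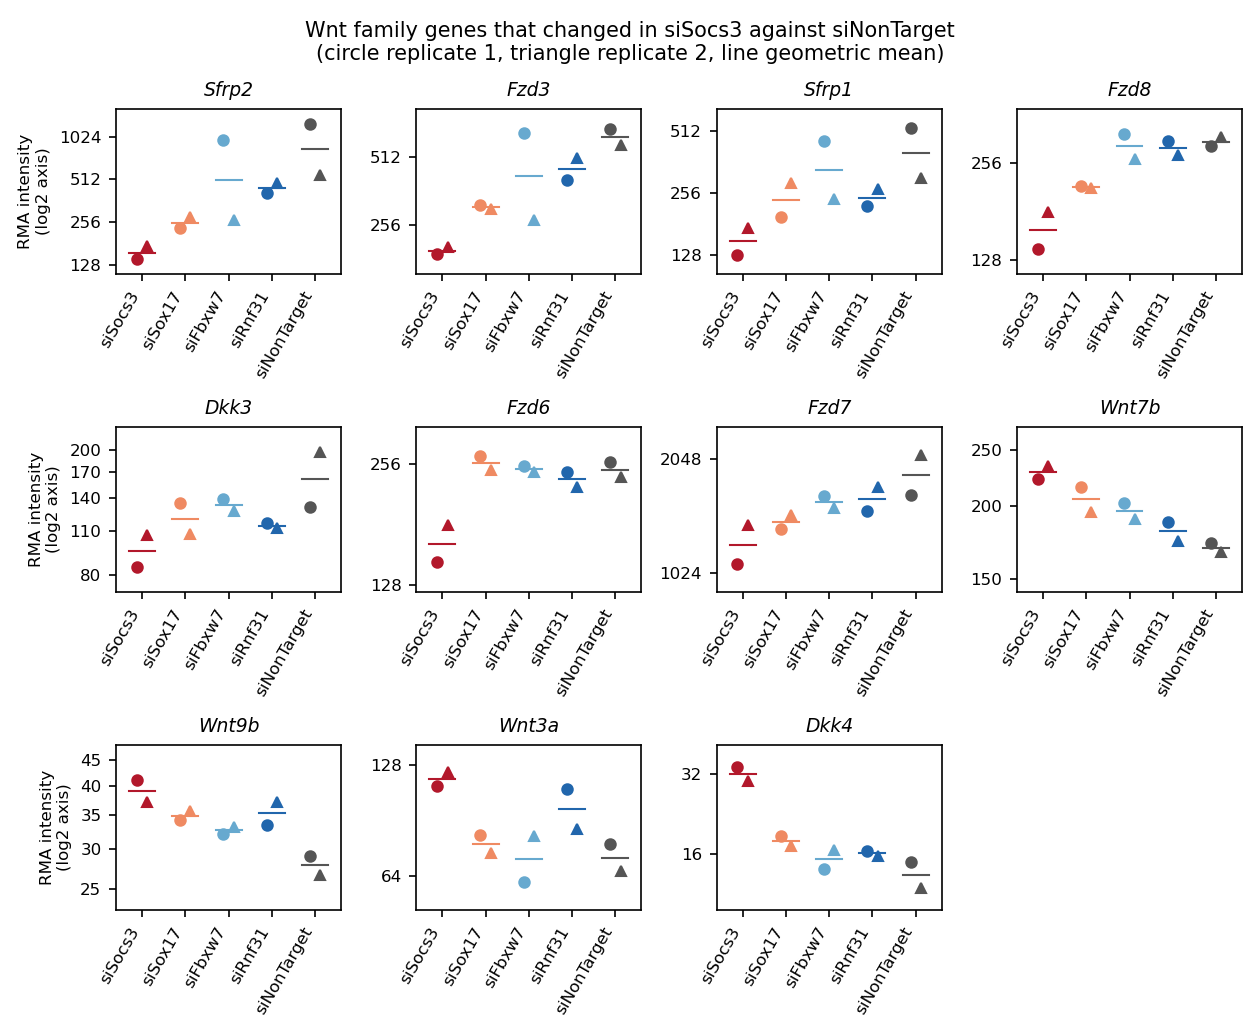
RMA intensity (log2 axis) of the 11 Wnt family genes that changed in siSocs3 against siNonTarget, on all 10 arrays in 5 groups. The siSocs3 arrays are the lowest of the 10 for Sfrp1, Sfrp2, Fzd3, Fzd6, Fzd8 and Dkk3 and the highest for Dkk4, Wnt3a, Wnt7b and Wnt9b; siFbxw7 replicate 1 and siNonTarget replicate 1 stand above the rest for Sfrp1 and Sfrp2.

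Of the Sfrp inhibitors, which bind Wnts outside the cell, Sfrp1 and Sfrp2 fell in siSocs3 and Sfrp4 and Sfrp5 did not pass. Sfrp2, a gene of the early neural tube, had intensities of 140.4 and 172 in the siSocs3 arrays, against 1256 and 551 in the siNonTarget arrays. Its change was −2.42 ± 0.55 on the log2 scale (95% interval −3.66 to −1.18, limma adjusted p = 0.0293), or 5.35-fold lower. Sfrp1, a close relative, had 128 and 175 in the siSocs3 arrays, against 532 and 305 in the siNonTarget arrays, with a change of −1.43 ± 0.35 (adjusted p = 0.0389). Sfrp5 had 134 and 169 in the siSocs3 arrays, against 543 and 274 in the siNonTarget arrays; its change of −1.36 ± 0.38 did not pass (adjusted p = 0.0591). For all 3 genes both siSocs3 arrays were the lowest of the 10, while the siNonTarget arrays differed from each other by as much as 2.28-fold (Sfrp2). Sfrp4 hardly differed (0.01 ± 0.11). Of 4 further Sfrp1 probe sets, all below 0, 2 passed when every probe set was tested alone (−1.33 ± 0.28 and −1.18 ± 0.19).

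The Sfrp estimates moved with siNonTarget replicate 1, 1 of the 2 arrays of high actin difference. Without it Sfrp2 was −1.82 (adjusted p = 0.146), Sfrp1 −1.02 (adjusted p = 0.185) and Sfrp5 −0.86. Without siNonTarget replicate 2 they were −3.01, −1.83 and −1.85, and all 3 passed. Both calls were also lost without siSocs3 replicate 1 (−2.27 and −1.20), siSocs3 replicate 2 (−2.57 and −1.65) or either siSox17 array, and that of Sfrp1 also without either siRnf31 array. With both arrays of high actin difference left out, Sfrp2 passed (adjusted p = 0.0122) and Sfrp1 did not (adjusted p = 0.0739).

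In the Dkk family, Dkk4 rose and Dkk3 fell in siSocs3, and Dkk1 and Dkk2 did not pass. Dkk4, an Lrp5 and Lrp6 antagonist that is itself a target of beta-catenin signalling, had 33.9 and 30 in the siSocs3 arrays, against 15.0 and 11.98 in the siNonTarget arrays. Both siSocs3 arrays were well above the other 8, which lay between 11.98 and 18.7. The rise of 1.25 ± 0.14 (adjusted p = 0.00367), or 2.38-fold, held in all 18 other settings run for it, each array left out in turn included; the 2 settings without dim genes removed it, since its intensities are near the bottom of the range. Dkk3, a relative that does not act through Lrp5 and Lrp6 in the same way, had 84.7 and 107 in the siSocs3 arrays, against 131 and 197 in the siNonTarget arrays. It fell by 0.76 ± 0.20 (adjusted p = 0.0485), and 15 of 19 other settings lost the call, with estimates between −1.05 and −0.46. Leaving out siSocs3 replicate 1 or 2 gave −0.58 and −0.93, leaving out siNonTarget replicate 2 gave −0.46, and leaving out any siSox17, siFbxw7 or siRnf31 array also ended it; without siNonTarget replicate 1 it was −1.05 and passed. Dkk1, the best-known antagonist of Lrp6 and a regulator of head formation, had 330.3 and 330.3 in the siSocs3 arrays, against 91.7 and 202 in the siNonTarget arrays. Its siSocs3 arrays agreed closely and its siNonTarget arrays differed 2.20-fold, and the change of 1.28 ± 0.50 did not pass (adjusted p = 0.142). The Dkk1 estimate was 0.71 without siNonTarget replicate 1 and 1.85 without siNonTarget replicate 2. Dkk2 was 0.13 ± 0.17.

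Markers of other cell types moved in the same comparison, in which 5.66% of all genes fell and 3.59% rose by the test. Of 6 neural progenitor markers 5 fell in siSocs3 and 0 rose, and their summed intensity was 665 to 837 in the siSocs3 arrays, against 1643 to 2210.5 in the siNonTarget arrays. Of 7 stem cell markers 4 rose (sums 40956 to 42051, against 24990.0 to 28104), and of 5 primitive streak markers 3 rose (462 to 486, against 208 to 236). In siSox17, where 0 of these markers passed, the 3 sums lay between those of siSocs3 and siNonTarget. They were 1339 to 1385 (neural progenitor), 33633 to 36501 (stem cell) and 332 to 340 (primitive streak). The stem cell marker Sox2 was not higher in siSocs3 (2787 and 2689, against 3036 and 2756 in siNonTarget). Among the streak markers Eomes was higher (305 and 339, against 104 and 122), while Mesp1 read 38.7 and 37.1, against 36.4 and 33.6. Neural crest, extraembryonic endoderm and fibroblast markers had 1 fall each (of 5, 7 and 7). Their sums were 398 to 432, 1455 to 1600.1 and 531 to 652 in siSocs3, against 766 to 795, 2177 to 2188 and 967 to 1262 in siNonTarget. Most of the neural crest difference lay in Ednrb (46.0 and 66.6, against 437 and 396), while Foxd3 was higher (33.9 and 45.8, against 24.7 and 21.1). Most of the fibroblast difference lay in Col1a2 (256 and 299, against 778 and 735), while Col3a1 read 112 and 161, against 35.9 and 274. Among the endoderm markers Lama1 was lower (222 and 251, against 783 and 343), while Gata6 read 463 and 493, against 450 and 496. The part of these cell types in the Wnt family changes was not tested, and in bulk RNA fewer cells of a type and less RNA per cell cannot be told apart.

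Some of the genes were extreme on the 2 arrays of high actin difference. On siFbxw7 replicate 1 and siNonTarget replicate 1, both values were the highest of the 10 arrays for 5 genes (Fzd3, Sfrp1, Sfrp2, Sfrp5 and Wnt5b) and the lowest for 9 (Dkk1, Dkk2, Fzd10, Wnt3, Wnt4, Wnt6, Wnt8a, Wnt9a and Wnt11). Among all genes 9.92% were highest and 9.4% lowest on these arrays, beside 13.5% and 24.3% of the 37. Sfrp2 read 978 and 1256 there, against 263 and 551 on the other array of the same groups. Wnt8a read 31.8 and 33.4, against 89.2 and 56.7. The siFbxw7 replicates differed at least 2-fold in 6 of the 37 genes, the siNonTarget replicates in 3 and the replicates of the other groups in 0. Of all 18194 genes, 208 did so in siFbxw7, 220 in siNonTarget, and 13, 40 and 105 in siSocs3, siSox17 and siRnf31. The part of RNA integrity in these values was not tested.

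**Figure D3:**
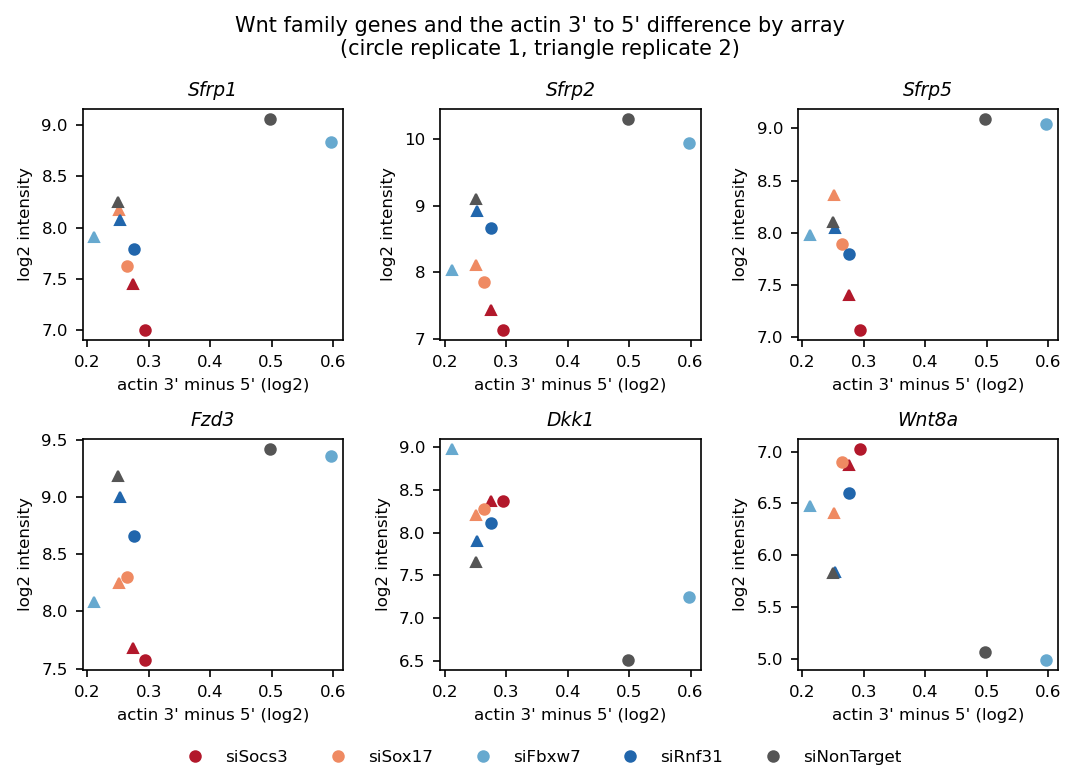
Log2 intensity of 6 Wnt family genes on each of the 10 arrays (vertical) against the log2 difference between actin 3' and 5' probe sets (horizontal). The 2 arrays at 0.50 and 0.60 hold the highest values of Sfrp1, Sfrp2, Sfrp5 and Fzd3 and the lowest of Dkk1 and Wnt8a, while the siSocs3 arrays, at 0.29 and 0.28, hold the lowest of the first 4 genes.

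In siSox17, siFbxw7 and siRnf31, 0 of the 37 genes passed against siNonTarget (limma), beside 0.0055%, 0% and 0% of all genes. An unadjusted p under 0.05 was reached by 17 genes in siSox17 (11 up, 6 down), 1 in siFbxw7 and 7 in siRnf31, or 45.9%, 2.7% and 18.9% of the 37, beside 17.3%, 6.45% and 5.87% of all genes. All 4 siRNA groups share the same 2 siNonTarget arrays, so their changes are not independent and are given side by side only. In siSocs3, siSox17, siFbxw7 and siRnf31 in turn, 14, 17, 16 and 15 of 19 Wnt genes had estimates above 0. Below 0 were 7, 7, 6 and 8 of 10 Fzd genes and 3, 3, 3 and 4 of 4 Sfrp genes. The median log2 change of all genes was 0.0253, −0.0026, 0.0006 and −0.0035 in the same order. Wnt4 had the smallest p of the 37 in siSox17, with 226 and 166 in the siSox17 arrays, against 89.5 and 119 in the siNonTarget arrays (0.91 ± 0.23, adjusted p = 0.14). Wnt9a, a ligand of joint development, had 538 and 383 in the siSox17 arrays, against 145 and 297 in the siNonTarget arrays (1.13 ± 0.32, adjusted p = 0.159). In both genes the siNonTarget arrays lay below both siSox17 arrays.

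Fzd4 read below both siNonTarget arrays on every array of siSocs3, siSox17 and siRnf31. Its siSox17 arrays read 138 and 167 and its siRnf31 arrays 126 and 205, against 241 and 357 in the siNonTarget arrays, with changes of −0.95 ± 0.29 (adjusted p = 0.165) and −0.87 ± 0.29 (adjusted p = 0.778). Sfrp2 was −1.72 ± 0.55 in siSox17, −0.71 ± 0.55 in siFbxw7 and −0.90 ± 0.55 in siRnf31, none past the threshold. Fzd3 was −1.03 ± 0.33 in siSox17, where it passed without either siFbxw7 array and in a fit of the 2 groups alone. In siFbxw7 the smallest p belonged to Wnt10a (0.48 ± 0.15), Wnt9b (0.23 ± 0.10) and Wnt7b (0.21 ± 0.10), with adjusted p of 0.752 to 0.762. In siRnf31 the smallest belonged to Wnt9b (0.34 ± 0.10), Fzd4 and Wnt10a (0.39 ± 0.15), all at an adjusted p of 0.778. The 2 siNonTarget arrays were the lowest of the 10 for Wnt7b, Wnt9b and Wnt10a.

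**Figure D4:**
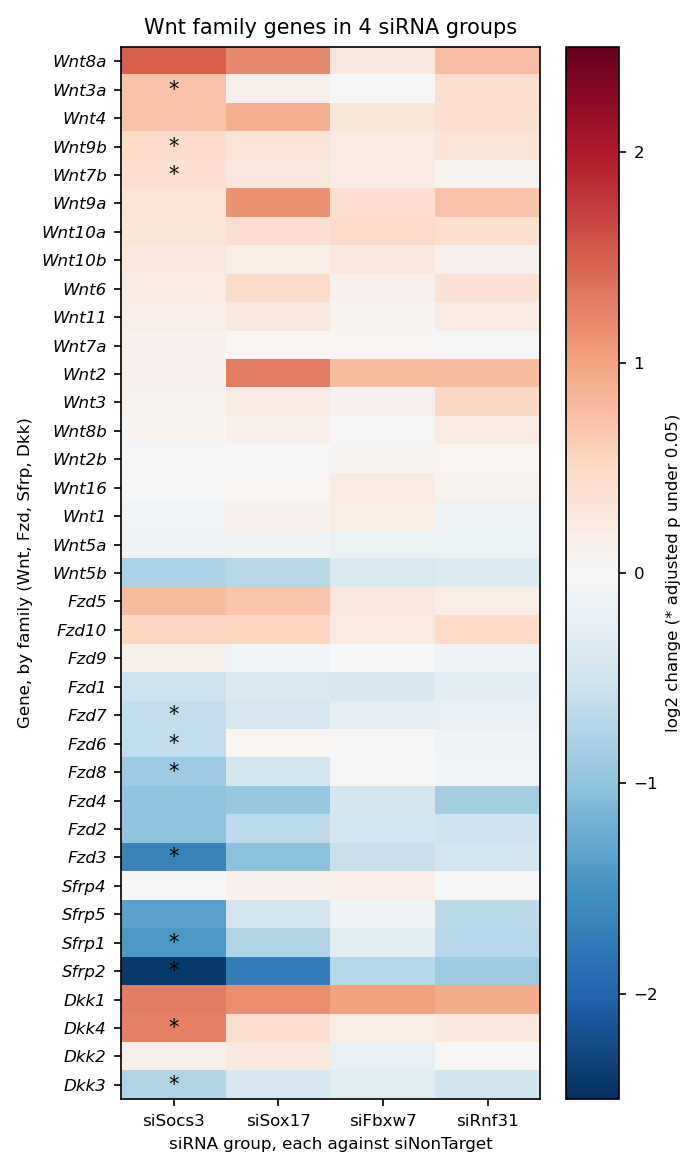
Colour gives the log2 change of each of the 37 Wnt family genes (rows, by family) in siSocs3, siSox17, siFbxw7 and siRnf31, each against the same 2 siNonTarget arrays, and asterisks mark an adjusted p under 0.05. All 11 asterisks are in the siSocs3 column, and Sfrp2 runs from −2.42 there through −1.72 in siSox17 to −0.90 in siRnf31 and −0.71 in siFbxw7.

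Direct comparisons between siSocs3 and the other siRNA groups set no siNonTarget mean against them, although the siNonTarget arrays still enter the estimate of the spread. The 3 comparisons share the 2 siSocs3 arrays. Against siSox17, siFbxw7 and siRnf31 in turn, 7, 11 and 9 of 19 Wnt genes had estimates above 0. Of 10 Fzd genes 8, 7 and 7 were below 0, and of 4 Sfrp genes 4, 4 and 3. The median log2 change of all genes was 0.011, −0.001 and 0.0121 in the same order. Against siSox17, Dkk4 rose and Fzd6 fell; against siFbxw7, Dkk4 rose and Fzd6 and Fzd8 fell; against siRnf31, Dkk4 rose and Fzd8 fell. These are 5.41%, 8.11% and 5.41% of the 37 genes, beside 2.61%, 3.51% and 2.13% of all genes called. Dkk4 was 0.83 ± 0.14 against siSox17 (limma adjusted p = 0.0186), 1.06 ± 0.14 against siFbxw7 (adjusted p = 0.00521) and 0.99 ± 0.14 against siRnf31 (adjusted p = 0.0112). Its arrays read 33.9 and 30 in siSocs3, against 18.7 and 17.1 in siSox17, 14.1 and 16.6 in siFbxw7 and 16.5 and 15.7 in siRnf31. No array of any other group reached the siSocs3 values.

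Fzd6 was −0.67 ± 0.12 against siSox17 (adjusted p = 0.0284), −0.62 ± 0.12 against siFbxw7 (adjusted p = 0.0305) and −0.53 ± 0.12 against siRnf31, where it did not pass (adjusted p = 0.0669). Fzd8 was −0.86 ± 0.14 against siFbxw7 (adjusted p = 0.0152), −0.85 ± 0.14 against siRnf31 (adjusted p = 0.0226) and −0.45 ± 0.14 against siSox17, where it did not pass (adjusted p = 0.15). The siSox17 arrays of Fzd8 read 217 and 214, between those of siSocs3 (139 and 179.9) and siNonTarget (287 and 307). Wnt3a had the third smallest p against siSox17 (0.59 ± 0.17, adjusted p = 0.123), and Fzd3 was −1.20 ± 0.33 against siRnf31 (adjusted p = 0.11). Sfrp2 did not pass in any direct comparison, at −0.70 ± 0.55, −1.71 ± 0.55 and −1.52 ± 0.55 against siSox17, siFbxw7 and siRnf31. Each direct count rested on single arrays: without siSocs3 replicate 1 it was 0 in all 3 comparisons. Against siSox17 it was 0 without either siSox17 array and 1 (Fzd6) without siSocs3 replicate 2, and against siRnf31 0 without either siRnf31 array and 3 without either siFbxw7 array. Against siFbxw7 it was 1 (Dkk4) without siFbxw7 replicate 1 and 8 without siFbxw7 replicate 2. Leaving out both arrays of high actin difference gave counts of 5, 1 and 4 against siSox17, siFbxw7 and siRnf31, with Dkk4 in each.

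The rest of the pathway was read from a list of 65 genes, of which 62 were measured. In siSocs3 against siNonTarget 7 of the 62 passed, 2 up and 5 down, or 11.3% beside the 9.26% of all genes, with a median log2 change of −0.13. Axin2, a scaffold of the destruction complex and a common readout of beta-catenin signalling, had 215 and 233 in the siSocs3 arrays, against 119 and 151 in the siNonTarget arrays. Both siSocs3 arrays were the highest of the 10, and the 2 arrays of high actin difference were the lowest. It rose by 0.74 ± 0.16 (limma adjusted p = 0.0227), its other probe set read 0.16 ± 0.11, and the mean of both was 0.45 (adjusted p = 0.051). Cdx1, a posterior homeobox gene that responds to Wnt and to retinoic acid, had 585 and 533 in the siSocs3 arrays, against 218 and 208 in the siNonTarget arrays, a rise of 1.39 ± 0.29 (adjusted p = 0.0223). Its siNonTarget arrays were the lowest of the 10. In siRnf31 Axin2 was 0.47 ± 0.16 against siNonTarget and did not pass (adjusted p = 0.778).

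Sp8, a zinc finger gene of limb and forebrain, had 32.0 and 44.1 in the siSocs3 arrays, against 258 and 122 in the siNonTarget arrays, a fall of 2.24 ± 0.34 (adjusted p = 0.00872) or 4.71-fold. It also fell against siSox17 (−2.36 ± 0.34), siFbxw7 (−2.26 ± 0.34) and siRnf31 (−1.77 ± 0.34), with adjusted p of 0.00923, 0.00971 and 0.0356. Both siSocs3 arrays were far below the other 8, the lowest of which read 122. Among the planar cell polarity genes, all 7 estimates were below 0 in siSocs3 and 2 passed. The median log2 change of all genes was 0.03 there. In siSox17, siFbxw7 and siRnf31, against the same siNonTarget arrays, 5, 6 and 6 of the 7 were below 0 and 0 passed. Prickle2 had 69.7 and 89.2 in the siSocs3 arrays, against 222 and 165 in the siNonTarget arrays and fell by 1.28 ± 0.17 (adjusted p = 0.00602); it fell also against siSox17 (−0.88 ± 0.17, adjusted p = 0.0343) and siFbxw7 (−1.20 ± 0.17, adjusted p = 0.00775). Vangl2, a core membrane protein of polarity, had 297 and 384 in the siSocs3 arrays, against 540.1 and 616 in the siNonTarget arrays (−0.77 ± 0.17, adjusted p = 0.0294). The kinase gene Gsk3b, whose product marks beta-catenin for removal, was −0.52 ± 0.11 (adjusted p = 0.0259), and Lgr4, an R-spondin receptor, −0.62 ± 0.15 (adjusted p = 0.038). Beta-catenin itself, Ctnnb1, had 10885 and 10853 in the siSocs3 arrays, against 10783 and 11531 in the siNonTarget arrays and did not pass (−0.04 ± 0.09, 95% interval −0.25 to 0.18). Nor did the nuclear factors Tcf7l1, a repressor in mouse stem cells (0.06 ± 0.13), and Lef1 (0.31 ± 0.32).

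By role, 2 of 12 measured genes of the cytoplasmic relay passed (Axin2 up, Gsk3b down), 2 of 7 polarity genes (both down), 2 of 9 targets (Cdx1 up, Sp8 down) and 1 of 9 R-spondin and R-spondin receptor genes (Lgr4 down). These were 16.7%, 28.6%, 22.2% and 11.1% of their roles, each resting on 1 or 2 genes, beside 9.26% of all genes (3.59% up, 5.66% down). Of 2 secretion genes, 6 co-receptors, 10 other inhibitors and 7 nuclear factors, 0 passed. All 7 calls were lost without siSocs3 replicate 1, where the count was 0. It was 2 without siNonTarget replicate 1 (Sp8 and Prickle2) and 3 without siSocs3 replicate 2 (Sp8, Prickle2 and Vangl2). Without siNonTarget replicate 2 Cdx1, Gsk3b, Lgr4 and Vangl2 lost the call, and without either siSox17 array Lgr4 and Vangl2. Without both arrays of high actin difference 5 passed: Sp8, Prickle2, Gsk3b, Lgr4 and Lgr5, so Axin2 (adjusted p = 0.0782), Cdx1 (adjusted p = 0.0663) and Vangl2 (adjusted p = 0.0683) lost the call there. The probe set mean also ended the calls of Gsk3b, Lgr4 and Vangl2 (−0.43, −0.18 and −0.59). The direct calls of Sp8 and Prickle2 were all lost without siSocs3 replicate 1. That of Sp8 was also lost without siSox17 replicate 2 against siSox17, without siFbxw7 replicate 1 against siFbxw7, and without siSocs3 replicate 2, either siSox17 or either siRnf31 array against siRnf31. That of Prickle2 against siSox17 was also lost without siSocs3 replicate 2 or either siSox17 array. In siSox17, siFbxw7 and siRnf31 against siNonTarget 0 of the 62 passed (limma). An unadjusted p under 0.05 was found for 14, 3 and 9 of them, or 22.6%, 4.84% and 14.5%, beside 17.3%, 6.45% and 5.87% of all genes.

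**Figure D5:**
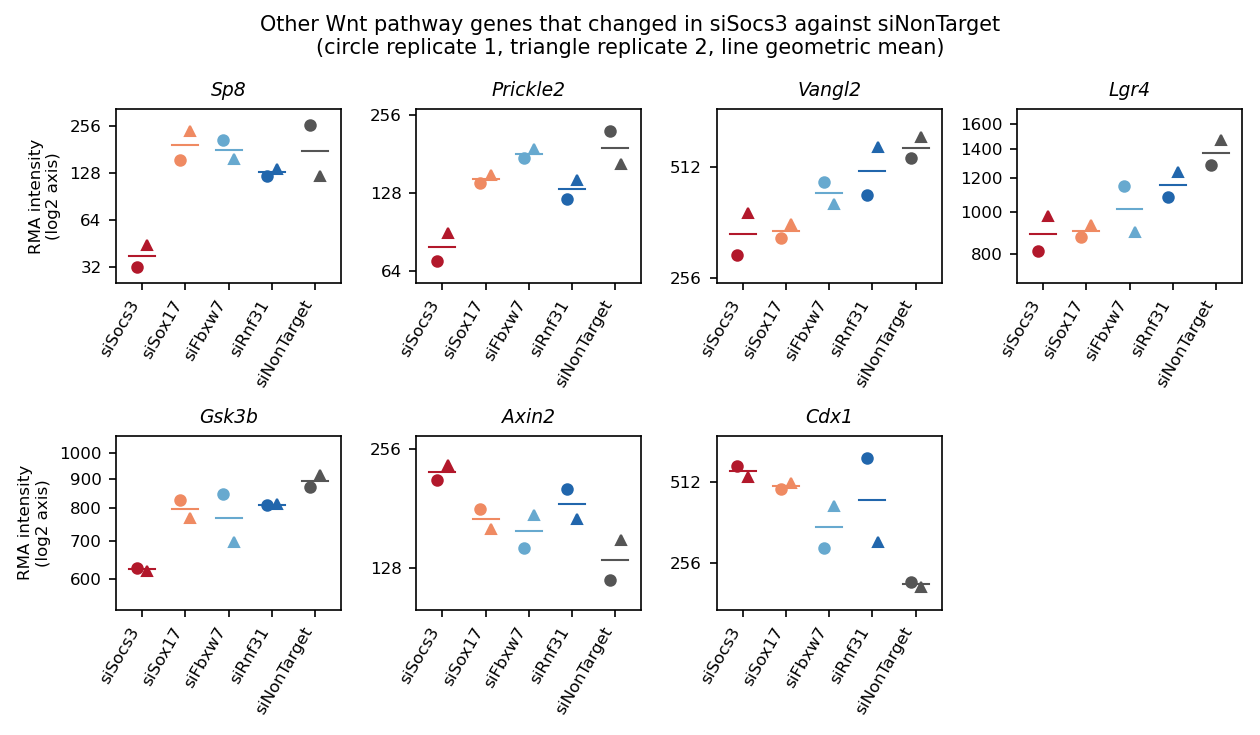
RMA intensity (log2 axis) of the 7 other Wnt pathway genes that changed in siSocs3 against siNonTarget, on all 10 arrays in 5 groups. The siSocs3 arrays are the lowest for Sp8, Prickle2 and Gsk3b and the highest for Axin2, while Cdx1 is lowest in siNonTarget.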

How the data were processed

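RNA of 10 samples of NG4 cells was measured on Affymetrix mouse arrays, from 5 ng of input RNA, per the labels' protocols. The deposited values are intensities on a linear scale, 1 per probe set, made by the authors with RMA, per the submitters' processing notes. The RMA version is not given in the sources used here. Intensities were turned into log2 values. Of 45101 probe sets, 34958 carried 1 gene symbol, 932 several and 9211 none. Genes were read by the probe set of highest mean, which gave 18194 genes.

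One limma model (limma 3.58.1, R 4.3.3) with 5 groups and moderated variances (5 residual degrees of freedom, prior 3.98) gave 7 contrasts, with Benjamini-Hochberg adjustment over all genes within a contrast. Adjusted p under 0.05 passed. The code of the fit was run on simulated data with known changes and independent noise on each array. Such data hold no shift shared by arrays, so the run does not speak to the 2 arrays of high actin difference. An exact permutation test of 2 arrays against 2 cannot go below p = 0.333 and was not used. Plots were drawn with Python 3.11.15 and matplotlib 3.10.9.

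All genes matching the name rule are accounted for. Those described with full values passed in some contrast, were among the 2 smallest p of their family in siSocs3 or the 3 smallest of another contrast, or had an unadjusted p under 0.05 in siSocs3 against siNonTarget. The members and all lists were chosen with earlier results of these data known. Of the other pathway genes, 3 (Kremen2, Tcf7 and T) were not analysed here. Equal replicate numbers were checked for pairing. Correlations of replicate differences over genes between groups ran between −0.26 and 0.42, with 1 of 10 above 0.1. That 1 was siFbxw7 with siNonTarget, the groups holding the 2 arrays of high actin difference, both replicate 1. The main model therefore did not pair arrays by number. Whether those 2 arrays were handled together cannot be told from this check. The alternatives were a replicate block, the 2 groups alone, quantile normalization, median centring, 2 filters on dim genes, another variance prior, the mean of probe sets, every probe set alone, a 2-fold minimum and each array left out.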

Additional observations from a re-analysis of the deposited data

How the results depend on the processing

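Settings not named here gave counts within 1.5 times the reported ones, and the cause of each shift was not tested. For siSocs3 against siNonTarget (11 Wnt family and 7 other pathway genes), the counts were 7 of the family without the dimmest 50% of genes and 4 with a 2-fold minimum, and 4 pathway genes with the mean of probe sets and 3 with a 2-fold minimum. With 1 array left out they ran between 1 and 16 and between 0 and 10. For siSox17 against siNonTarget (0 and 0), the 2 groups alone gave 1 and 1 (Fzd3 and Cdx1), and leaving out 1 array gave 0 to 1 and 0 to 0.

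For siSocs3 against siSox17 (2 and 2), the family count was 6 in the 2 groups alone, 1 without the dimmest 30% or 50%, 1 with the mean of probe sets, 0 with a 2-fold minimum and 5 without both arrays of high actin difference, a setting chosen after seeing the data. The pathway count was 4 in the 2 groups alone and 1 with the replicate block, without the dimmest 50% and with a 2-fold minimum. The leave-one-out ranges were 0 to 2 and 0 to 3. Against siFbxw7 (3 and 2), the family count was 1 in the 2 groups alone, with a 2-fold minimum and without both arrays of high actin difference, and the pathway count 1 without the dimmest 50%, with ranges of 0 to 8 and 0 to 2. Against siRnf31 (2 and 1), the family count was 1 without the dimmest 30% or 50%, 0 with a 2-fold minimum and 4 without both arrays of high actin difference. The pathway count was 0 with the replicate block and without the dimmest 50%, and 2 without both arrays, with ranges of 0 to 3 and 0 to 2.

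The replicate block gave 8 family and 7 pathway genes for siSocs3 against siNonTarget (Wnt3a, Sfrp1 and Dkk3 missed the threshold, with limma adjusted p of 0.0527, 0.0567 and 0.064), and 2, 3 and 2 family genes against siSox17, siFbxw7 and siRnf31. Tcf7l1 in siSocs3 against siNonTarget reversed to −0.0097 with the mean of probe sets and −0.014 without both arrays of high actin difference, and ran between −0.019 (siSocs3 replicate 2 out) and 0.13 (siSocs3 replicate 1 out) with 1 array left out. Ctnnb1 reversed to 0.076 with the mean of probe sets, and ran between −0.085 (siNonTarget replicate 1 out) and 0.011 (siNonTarget replicate 2 out). Neither passed in any setting. Where a group kept 1 array, its spread is taken to equal that of the remaining groups. With 2 arrays a group, intensities near the bottom of the range (below 34.9 in the lowest 30% of genes) limit what can be read for 10 of the 37 genes.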
